A study of Mus musculus with 6 samples.

Results

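The genes described here encode the machinery that burns fatty acids in mitochondria and makes ketone bodies from the product, together with the receptor gene Ppara and its known target Vnn1. They were chosen by name as a list of 33 genes, with earlier results of these data known. A gene was measured when the platform annotation gave a probe set with its symbol alone. That rule found 31 of the 33, out of 19938 genes named in this way on the array. Acsl3 shared its only probe set with another gene, and Acsl1 was not analysed here. Liver RNA came from 3 mice with the G609G knock-in allele of Lmna on both chromosomes (LmnaG609G/G609G; mice 1, 3 and 5) and from 3 wild-type mice (Lmna+/+; mice 2, 4 and 6), with 1 array per mouse. All were females on the C57BL/6 background, aged 3 months, and all had been without food for 6 h, so both genotypes share a short fast. The allele is carried in the germ line and alters splicing of the lamin A transcript throughout the body, which makes it a model of Hutchinson-Gilford progeria and not a liver-specific change. Values are the authors' intensities per probe set, in arbitrary units.

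In fasting, the liver takes up fatty acids released from fat tissue and oxidises them. Acyl-CoA synthetases first activate the acid, the carnitine shuttle carries it into the mitochondrion, and each turn of the beta-oxidation spiral then removes a pair of carbons through a dehydrogenase, a hydratase, a second dehydrogenase and a thiolase. Electrons pass through the electron transfer flavoprotein to the respiratory chain, and the acetyl-CoA formed is condensed to ketone bodies for other tissues. The nuclear receptor PPARalpha, bound to a retinoid X receptor, drives many of these genes from a direct repeat of the hexamer AGGTCA.

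Of the 31 measured members, 27 were called lower in knock-in liver, 1 was called higher and 3 were not called. A call is a limma Benjamini-Hochberg adjusted p below 0.05, taken over all 26634 probe sets tested. Over all of these probe sets, 10.9% were called lower and 14.9% higher (25.9% in either direction). The members were not chosen blind to these data, and their share was not tested against this background. All 31 members passed the filter on dim probe sets. Their median log2 change (knock-in minus wild-type, on the scale of log2 of the intensity plus 16) was -0.89, or 1.85-fold lower, against a median of 0.03 over all tested probe sets. The members called lower were also the 27 whose genotypes did not overlap with knock-in lower, a pattern seen at 17.2% of tested probe sets (41.1% were apart in either direction). The size of the fall ran from 1.34-fold for Etfa to 12.1-fold for Bdh1, and 13 members fell at least 2-fold. Apart from Ppara and Vnn1, 25 of 29 were called lower, with a median of -0.82. In bulk tissue, fewer cells of a type and less RNA per cell cannot be told apart.

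**Figure D1:**
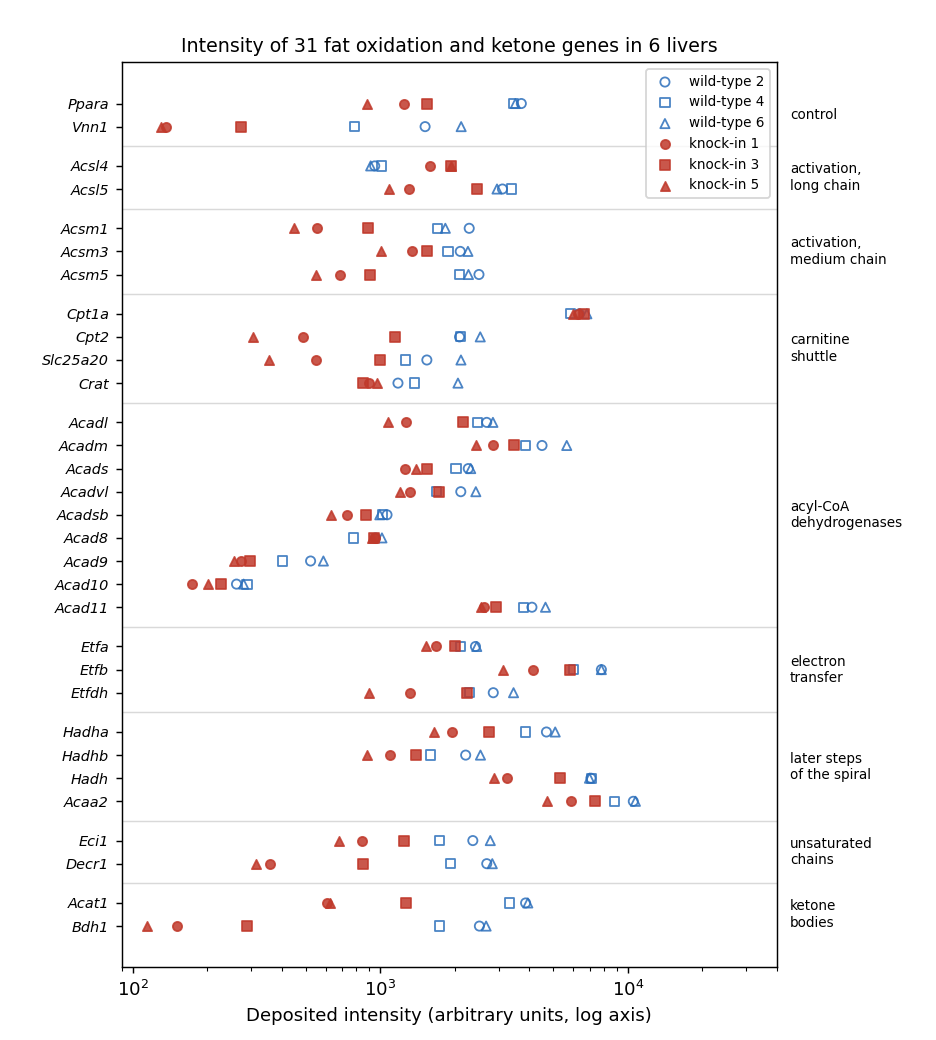
Deposited intensity of each of the 31 members on a log axis, with 1 symbol per mouse (3 wild-type mice as open blue symbols, 3 knock-in mice as filled red symbols) and genes ordered by step. The red symbols lie left of the blue ones for 27 genes, right of them for Acsl4, and among them for Cpt1a, Acadvl and Acad8.

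RefSeq promoter windows (GRCm38.p6, 250 bases before to 50 after the annotated start) were held for 25 of the 31 measured members, in 26 windows of 300 bases. They are shown for the members whose changes contrast most, namely Bdh1 with the largest fall (both annotated starts), Acsl4 with the only rise and Cpt1a with no call. Hadhb is shown because it shares its window with Hadha, and Acadm because it carries an AGGTCA hexamer. Sequences run 5′ to 3′ on the strand of the gene, and capitals mark every match on either strand to the hexamer AGGTCA, the GC box GGGCGG and the CCAAT box.
Bdh1, first start, chr16:31422047-31422346, plus strand: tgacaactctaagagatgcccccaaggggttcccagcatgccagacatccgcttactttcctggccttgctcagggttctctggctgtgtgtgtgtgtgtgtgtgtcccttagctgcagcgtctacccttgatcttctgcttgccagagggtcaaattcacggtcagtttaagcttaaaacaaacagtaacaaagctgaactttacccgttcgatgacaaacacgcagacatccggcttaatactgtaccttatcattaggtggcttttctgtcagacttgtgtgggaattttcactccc
Bdh1, second start, chr16:31428503-31428802, plus strand: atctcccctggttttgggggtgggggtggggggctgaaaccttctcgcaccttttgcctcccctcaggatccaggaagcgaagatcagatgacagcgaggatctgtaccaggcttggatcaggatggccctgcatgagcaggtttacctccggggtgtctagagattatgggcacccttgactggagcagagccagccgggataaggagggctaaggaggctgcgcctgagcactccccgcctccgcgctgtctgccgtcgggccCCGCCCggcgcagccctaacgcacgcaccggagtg
Acsl4, chrX:142390486-142390785, minus strand: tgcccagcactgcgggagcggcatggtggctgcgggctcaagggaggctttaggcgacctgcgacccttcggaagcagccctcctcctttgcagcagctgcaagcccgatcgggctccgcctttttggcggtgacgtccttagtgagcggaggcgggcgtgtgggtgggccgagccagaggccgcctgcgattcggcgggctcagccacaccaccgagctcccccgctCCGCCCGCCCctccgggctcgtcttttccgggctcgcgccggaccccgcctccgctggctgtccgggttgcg
Cpt1a, chr19:3323051-3323350, plus strand: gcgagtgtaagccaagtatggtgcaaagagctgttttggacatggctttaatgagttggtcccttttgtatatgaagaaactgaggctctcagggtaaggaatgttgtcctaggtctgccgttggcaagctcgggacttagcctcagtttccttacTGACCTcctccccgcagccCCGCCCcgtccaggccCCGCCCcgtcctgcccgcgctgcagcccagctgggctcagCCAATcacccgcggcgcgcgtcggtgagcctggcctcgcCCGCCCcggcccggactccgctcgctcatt
Hadhb, chr5:30155003-30155302, plus strand: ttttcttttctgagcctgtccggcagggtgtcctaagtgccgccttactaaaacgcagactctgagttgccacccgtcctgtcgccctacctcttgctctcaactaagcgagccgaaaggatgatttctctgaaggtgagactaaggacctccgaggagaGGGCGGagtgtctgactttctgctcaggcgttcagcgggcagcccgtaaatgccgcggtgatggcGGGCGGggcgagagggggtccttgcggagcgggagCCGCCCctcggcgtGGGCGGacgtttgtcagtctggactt
Acadm, chr3:153944594-153944893, minus strand: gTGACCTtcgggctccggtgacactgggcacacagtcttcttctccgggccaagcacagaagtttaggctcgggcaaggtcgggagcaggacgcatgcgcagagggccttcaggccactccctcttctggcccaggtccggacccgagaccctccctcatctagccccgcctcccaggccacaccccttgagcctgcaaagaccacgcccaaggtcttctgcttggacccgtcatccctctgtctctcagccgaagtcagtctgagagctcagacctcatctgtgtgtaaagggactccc

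The GC box was in 17 of the 26 member windows (65.4%), against 35.7% of all 32851 windows in the table. Hadha and Hadhb are both among the 17, and their windows overlap by 228 bases, so they are not separate counts. Member windows also held more G and C, with a median of 59.5% against a mean of 53.8% over all windows. The CCAAT box was in 11 of 26 (42.3%, against 37.4%). The hexamer AGGTCA was in 4 of 26 (15.4%, against 16.3%), in Acadm, Acadvl, Acsm1 and Cpt1a. The direct repeat (the hexamer, any 1 base, then the hexamer again) was in 0 of 26 windows and in 0.0396% of all windows. The TATA motif TATAAA was in 0 of 26, against 13.6%. Of the 4 genes with the hexamer, Acadm and Acsm1 fell, while Acadvl and Cpt1a were not called. In the Cpt1a window shown above the hexamer starts 94 bases before the annotated start, on the other strand. A match describes only the letters in the window.

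The regulator itself was lower. Ppara, which encodes PPARalpha, read 1245, 1543 and 881 in knock-in mice 1, 3 and 5 and 3709, 3443 and 3509 in wild-type mice 2, 4 and 6. The 3 knock-in mice all lay well below the wild-type mice, which differed little among themselves. The log2 change was -1.56 ± 0.19 (SE from 3 mice in each genotype), a 2.95-fold fall with a limma adjusted p of 0.00165. Vnn1 encodes pantetheinase, an enzyme of coenzyme A breakdown that is not a step of oxidation and is known as a strong PPARalpha target. It read 136, 272 and 130 in knock-in against 1515, 787 and 2119 in wild-type mice, and the wild-type mice spread widely. Its log2 change of -2.89 ± 0.39 (limma adjusted p = 0.00243), or 7.43-fold lower, was the second largest fall among the members.

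Activation of fatty acids showed a rise and several falls. Of the 4 long-chain synthetases listed, 2 were measured by a probe set of their own. The probe set that Acsl3 shares with Utp14b was called lower (-0.72 ± 0.16, limma adjusted p = 0.0163), which cannot be assigned to either gene. Acsl4, a long-chain acyl-CoA synthetase with a preference for arachidonic acid, read 1593, 1936 and 1928 in knock-in and 948, 1012 and 913 in wild-type liver. It was the only member that rose, with non-overlapping genotypes and a log2 change of 0.91 ± 0.11, or 1.88-fold (limma adjusted p = 0.00165). Acsl5, a long-chain synthetase found at the endoplasmic reticulum and mitochondria, read 1305, 2456 and 1083 against 3112, 3384 and 2958. Knock-in mouse 3 was nearest to wild-type for this gene, and the log2 change was -1.05 ± 0.27 (limma adjusted p = 0.0275). Leaving out any mouse other than knock-in 3 ended the Acsl5 call (adjusted p = 0.0620 to 0.0992), while without knock-in 3 the change was -1.39 (adjusted p = 0.000395). The log2 difference between Acsl5 and Acsl4 within an array was -0.26 ± 0.58 (SD, n = 3) in knock-in and 1.70 ± 0.02 in wild-type mice, so the changes of the genes were unequal by -1.96. An exact two-sided permutation test of that difference over the 6 mice gave p = 0.1 (2 such pairs were tested, adjusted p = 0.1). That is the smallest p that 3 against 3 allow. Both pairs set a member called lower against another that rose or was not called in these same data. The test therefore decides nothing about them.

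The medium-chain synthetases fell together. Acsm1, Acsm3 and Acsm5, mitochondrial enzymes that activate medium-chain acids, lie near each other on chromosome 7. Acsm5 read 684, 906 and 548 in knock-in and 2501, 2090 and 2268 in wild-type mice, which is 3.22-fold lower (-1.69 ± 0.18, limma adjusted p = 0.00111). Acsm1 read 553, 894 and 446 against 2284, 1701 and 1829, a change of -1.64 ± 0.24 (adjusted p = 0.00341). Acsm3 read 1342, 1548 and 1002 against 2101, 1874 and 2257, with the smallest fall of the 3 (-0.69 ± 0.16, adjusted p = 0.0200). The Acsm3 call was lost without knock-in 1, wild-type 2 or wild-type 6 (adjusted p = 0.0567 to 0.0693). The genes are close paralogs, so probes of one may also bind transcripts of another.

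The shuttle that carries acyl groups into the mitochondrion was lower at its inner steps and not at its entry. Cpt1a, the carnitine palmitoyltransferase of the outer membrane and the rate-controlling step of oxidation, read 6281, 6642 and 6023 in knock-in and 6354, 5882 and 6826 in wild-type mice. The genotypes overlapped throughout, and the log2 change was -0.01 ± 0.08 (limma adjusted p = 0.963; 95% interval -0.20 to 0.18). Slc25a20, the carnitine-acylcarnitine carrier of the inner membrane, read 547, 999 and 355 against 1540, 1258 and 2115 (-1.44 ± 0.36, adjusted p = 0.0230). Cpt2, which regenerates acyl-CoA inside the mitochondrion, read 488, 1143 and 305 against 2087, 2107 and 2531 (-1.97 ± 0.41, 3.93-fold lower, adjusted p = 0.0119). Both falls were carried by all 3 knock-in mice, with mouse 5 lowest and mouse 3 highest. The Cpt2 call was lost without knock-in 1 (adjusted p = 0.0502), and that of Slc25a20 without knock-in 1, wild-type 2 or wild-type 6 (adjusted p = 0.0619 to 0.0786). Crat, which moves acetyl groups between coenzyme A and carnitine, read 897, 851 and 967 against 1177, 1376 and 2057 (-0.72 ± 0.20, adjusted p = 0.0327). Here the knock-in mice were tightly grouped and wild-type mouse 6 stood highest. The Crat call was lost without knock-in 1, 3 or 5 or wild-type 4 (adjusted p = 0.0619 to 0.0979), and with no filter (adjusted p = 0.0528). The log2 difference between Cpt2 and Cpt1a was -3.47 ± 0.87 (SD, n = 3) in knock-in and -1.50 ± 0.09 in wild-type mice, an unequal change of -1.97 (exact two-sided permutation p = 0.1, the smallest possible). Here too the 2 genes already differed in their calls on these data, so the test decides nothing.

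**Figure D2:**
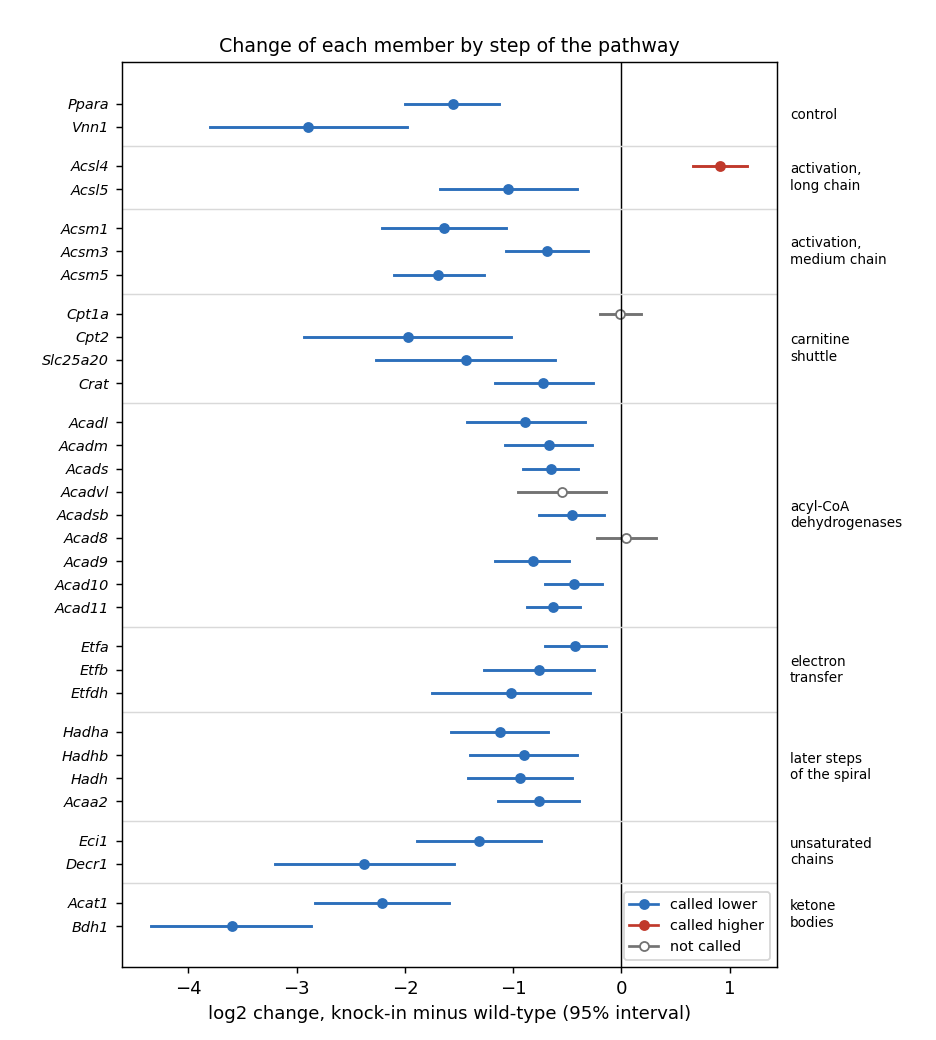
Log2 change of each member, knock-in minus wild-type, as a point with its 95% interval from limma (3 mice per genotype), with genes ordered by step and blue, red and grey marking members called lower, called higher and not called. The widest falls are those of Bdh1 (-3.60), Vnn1 (-2.89), Decr1 (-2.38) and Acat1 (-2.21), while Cpt1a and Acad8 sit at 0 within their intervals and Acsl4 lies to the right.

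The acyl-CoA dehydrogenases, which open each turn of the spiral, showed smaller falls, with 7 of 9 called and a median log2 change of -0.63. Among those that act on straight chains, Acadl (long chains) changed by -0.89 ± 0.24, Acadm (medium chains) by -0.67 ± 0.17 and Acads (short chains) by -0.65 ± 0.11 (limma adjusted p = 0.0296, 0.0261 and 0.00502). Acadvl, for very long chains, read 1322, 1719 and 1204 in knock-in and 2112, 1679 and 2429 in wild-type mice. Knock-in mouse 3 overlapped wild-type mouse 4 there, and the change of -0.55 ± 0.18 was not called (adjusted p = 0.0579; 95% interval -0.96 to -0.14). Acadvl was called lower without knock-in 3 (adjusted p = 0.0176) or wild-type 4 (adjusted p = 0.0371), with the 50th percentile filter and with array weights. Acadl read 1274, 2155 and 1075 against 2688, 2470 and 2848, and Acadm read 2849, 3471 and 2427 against 4497, 3861 and 5660. Acads read 1253, 1539 and 1389 against 2264, 2018 and 2316. In all 3 the genotypes were apart, by a narrow margin at Acadl and Acadm. The Acadl call was lost without any mouse other than knock-in 3 (adjusted p = 0.0656 to 0.105) and with no filter (adjusted p = 0.0504), and that of Acadm without knock-in 1 or 5 or wild-type 2 or 6 (adjusted p = 0.0685 to 0.0839).

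The remaining dehydrogenases act on branched chains of amino acid breakdown or have other roles. Acad8, which oxidises isobutyryl-CoA from valine, read 947, 941 and 928 in knock-in and 955, 779 and 1014 in wild-type mice. Its log2 change of 0.04 ± 0.12 was not called (limma adjusted p = 0.835; 95% interval -0.23 to 0.32). Acadsb, which acts on a short branched chain from isoleucine, read 733, 877 and 634 against 1063, 1018 and 994 (-0.46 ± 0.13, adjusted p = 0.0365). Its call was lost without any mouse other than knock-in 3 (adjusted p = 0.0833 to 0.115) and with no filter (adjusted p = 0.0508). Acad9, known mainly as an assembly factor of respiratory complex I, read 272, 298 and 255 against 522, 402 and 588 (-0.82 ± 0.15, adjusted p = 0.00700). Acad11 read 2628, 2922 and 2537 against 4094, 3784 and 4645 (-0.63 ± 0.10, adjusted p = 0.00496), and Acad10 read 173, 227 and 201 against 262, 289 and 280 (-0.44 ± 0.11, adjusted p = 0.0265). Acad9 and Acad11 fell with the genotypes well apart, while Acad10 was lost without any mouse other than knock-in 3 (adjusted p = 0.0574 to 0.0832).

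The genes that take electrons from the dehydrogenases were lower, though with less certainty. Etfa and Etfb, the subunits of the electron transfer flavoprotein, changed by -0.43 ± 0.12 and -0.76 ± 0.22, and Etfdh, the oxidoreductase that passes the electrons to ubiquinone, by -1.02 ± 0.31 (limma adjusted p = 0.0386, 0.0395 and 0.0482). Etfa read 1676, 1992 and 1528 in knock-in against 2421, 2104 and 2450 in wild-type mice. Etfb read 4123, 5836 and 3120 against 7813, 6032 and 7811, and Etfdh read 1321, 2230 and 896 against 2857, 2284 and 3450. At all 3 genes knock-in mouse 3 came within a small distance of wild-type mouse 4 without crossing it. The calls of Etfb and Etfdh were lost without any mouse other than knock-in 3 (adjusted p = 0.0512 to 0.138), and that of Etfa without knock-in 1 or 5 or wild-type 2 or 6 (adjusted p = 0.105 to 0.126). With no filter none of the 3 was called, and Etfdh was also lost with eBayes without trend (adjusted p = 0.0519) and with a robust prior (adjusted p = 0.0538).

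All 4 genes of the later steps of the spiral fell. Hadha and Hadhb, the subunits of the mitochondrial trifunctional protein that handles long chains, start 273 bases apart on opposite strands of chromosome 5, and their promoter windows overlap by 228 bases. Hadha read 1946, 2735 and 1649 in knock-in against 4686, 3858 and 5084 in wild-type mice (-1.12 ± 0.19, limma adjusted p = 0.00556). Hadhb read 1091, 1393 and 880 against 2210, 1599 and 2536 (-0.90 ± 0.21, adjusted p = 0.0193), and a second probe set of the gene gave -0.93 ± 0.22 (adjusted p = 0.0190). The mice stood in the same order at both genes, with knock-in 5 lowest and wild-type 6 highest. The Hadhb call was lost without knock-in 1 or 5 or wild-type 2 or 6 (adjusted p = 0.0535 to 0.0666). Hadh, the hydroxyacyl-CoA dehydrogenase for shorter chains, read 3240, 5317 and 2877 against 7088, 7115 and 6994 (-0.94 ± 0.21, adjusted p = 0.0149), and was lost without knock-in 1 (adjusted p = 0.0605). Its wild-type mice agreed within an SD of 63.5 units, while the knock-in SD was 1316.5 units. Acaa2, the thiolase that releases acetyl-CoA, read 5876, 7376 and 4706 against 10516, 8854 and 10724 (-0.76 ± 0.16, adjusted p = 0.0127).

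The auxiliary enzymes for unsaturated fatty acids fell further. Decr1, the dienoyl-CoA reductase, read 357, 850 and 314 in knock-in and 2689, 1921 and 2831 in wild-type mice, which is 5.19-fold lower (-2.38 ± 0.35, limma adjusted p = 0.00340). Eci1, an isomerase that shifts double bonds, read 846, 1242 and 678 against 2362, 1738 and 2779, a change of -1.32 ± 0.25 (adjusted p = 0.00801). At both genes every knock-in mouse lay below every wild-type mouse.

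The measured ketone body genes fell furthest of the steps, with a median log2 change of -2.91 over 2 genes. Acat1, the mitochondrial thiolase that joins acetyl-CoA units, read 608, 1267 and 626 in knock-in and 3860, 3329 and 3940 in wild-type mice. The knock-in mean was 833.7 ± 375.4 units (SD, n = 3) and the wild-type mean 3709.7 ± 332.1 units, a change of -2.21 ± 0.27 (limma adjusted p = 0.00166). Bdh1, which converts acetoacetate to 3-hydroxybutyrate, read 150, 290 and 114 against 2511, 1726 and 2673. It had the largest change of any member, and its intensity in knock-in mice 1, 3 and 5 was 6.51%, 12.6% and 4.95% of the wild-type mean. Bdh1 thus fell 12.1-fold (-3.60 ± 0.32 on the log2 scale, adjusted p = 0.000608), and the change ranged from -3.34 to -3.96 with single mice left out.

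By the distance between centred log2 values over the 6 arrays, the members most like Bdh1 were Vnn1 (1.05), Decr1 (1.52), Acat1 (1.75), Cpt2 (2.08) and Acsm5 (2.41). The arrays share genotype as their main split, so this distance mostly follows the size of the fall.

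The knock-in mice kept nearly the same order from member to member. Over the 31 members, the median intensity was 51.6% of the wild-type mean in knock-in mouse 1, 70.0% in mouse 3 and 41.6% in mouse 5. Mouse 3 was the highest of the 3 at 29 members and mouse 5 the lowest at 26. Over all probe sets called lower, mouse 3 was the highest of its group at 73.5% and mouse 5 the lowest at 56.7%, against 40.1% and 32.1% of all probe sets tested. Wild-type mouse 4 was the lowest of its group at 24 members, against 48.1% of probe sets called lower. Without knock-in 3, 27 members were called lower, with Acadvl called and Crat lost. Without knock-in 1 the number was 13, without knock-in 5 it was 17, without wild-type 2 or 6 it was 16 each, and without wild-type 4 it was 21. The 13 members called lower under every alternative tried were Ppara, Vnn1, Acsm1, Acsm5, Acads, Acad9, Acad11, Hadha, Acaa2, Eci1, Decr1, Acat1 and Bdh1, and Acsl4 was called higher under each.

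**Figure D3:**
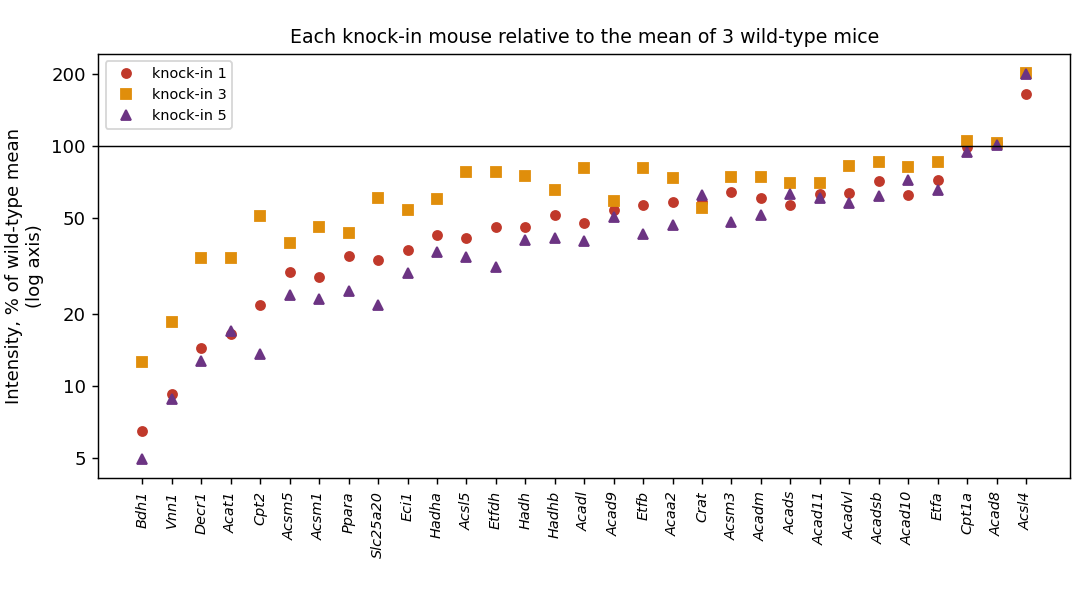
Intensity of each member in knock-in mice 1, 3 and 5 as a percentage of the mean of the 3 wild-type mice (log axis, line at 100%), with members ordered from the largest fall to the rise. Mouse 3 lies above mice 1 and 5 at most members, and all 3 mice lie under 20% at Bdh1 and Vnn1 and above 150% at Acsl4.

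Genes of the pathway outside the members had a smaller median change. Of 28 tested genes of mitochondrial oxidation and ketone handling, 8 were called lower and 1 higher, with a median log2 change of -0.16. Those that fell were Bdh2, a short-chain dehydrogenase (-1.07 ± 0.14), Hibch of valine breakdown (-0.95 ± 0.16), the acyl-CoA synthetase Acss3 (-1.36 ± 0.30), Mlycd (-0.36 ± 0.10), Acacb (-1.39 ± 0.27), Pcca (-0.62 ± 0.11), Pccb (-0.56 ± 0.15) and Acad12 (-0.42 ± 0.09; limma adjusted p = 0.00198 to 0.0382 over the 8). Acacb makes malonyl-CoA, the inhibitor of Cpt1a, and Mlycd breaks it down. Pcca and Pccb form the carboxylase for propionyl-CoA. Etfbkmt, a methyltransferase that modifies Etfb, was higher (0.61 ± 0.18, adjusted p = 0.0407), a call lost with centred arrays, with no filter, and without knock-in 1, knock-in 3, wild-type 4 or wild-type 6. Acss3 lost its call without knock-in 1 (adjusted p = 0.0605), Mlycd without any 1 of the 6 mice (up to 0.147) and Pccb without any mouse other than knock-in 3 (up to 0.0999). Without knock-in 1, 5 genes of this list were called lower. Among those not called with the smallest p were Mcee (-0.32 ± 0.10), Eci2 (-0.69 ± 0.25) and Gcdh (-0.27 ± 0.10; adjusted p = 0.0547 to 0.0937). With array weights all 3 were called lower. Mcee and Eci2 were also called without knock-in 3 (-0.40 and -0.95, adjusted p = 0.0140 and 0.00819), Gcdh without wild-type 4 (-0.37, adjusted p = 0.0237), and Mcee further with quantile normalization, centred arrays and the 50th percentile filter.

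Other known PPARalpha targets split. Of 18 tested, 10 were called lower and 1 higher, with a median of -1.10. With single mice left out, the number called lower ran from 7, without knock-in 1, to 12, without knock-in 3. Acaa1b (-3.01 ± 0.42) and Acot2 (-1.51 ± 0.22) were called lower under every alternative. Acot1 (-1.84 ± 0.45), Pex11a (-1.17 ± 0.26) and Slc27a1 (-0.46 ± 0.10) lost their calls without knock-in 1 (limma adjusted p = 0.0619 to 0.0763). Acot1 and Slc27a1 also lost theirs when some other mice were left out. Among the steep falls were those of Fabp1, the liver fatty acid binding protein, at -4.14 ± 0.71, Plin2, which coats lipid droplets, at -3.15 ± 0.30, and Mgll, a monoacylglycerol lipase, at -2.33 ± 0.24 (limma adjusted p = 0.000742 to 0.00568 over the 3 genes). Fabp1 read 263, 2043 and 269 in knock-in mice 1, 3 and 5, so that mouse 3 stood far above the others, and its change was -5.09 without knock-in 3 and -3.65 without knock-in 1. Ehhadh, a peroxisomal bifunctional enzyme of oxidation (-1.56 ± 0.23), and Aldh3a2, a fatty aldehyde dehydrogenase (-1.67 ± 0.18), also fell (adjusted p = 0.00127 to 0.00339). Pdk4, a kinase that restrains pyruvate oxidation, rose (1.67 ± 0.35, adjusted p = 0.0124). The omega-hydroxylase gene Cyp4a14 read 7798, 10764 and 6140 in knock-in and 9702, 7259 and 11555 in wild-type mice, with overlapping genotypes (-0.22 ± 0.23, adjusted p = 0.553). Cyp4a31 (-1.03 ± 0.41), Cyp4a10 (-0.81 ± 0.34), Angptl4 (0.47 ± 0.21) and Cd36 (0.39 ± 0.19) were not called either (adjusted p = 0.107 to 0.189). Cyp4a31 and Cyp4a10 were called lower with array weights and without knock-in 3 (-1.40 and -1.18, adjusted p = 0.0257 and 0.0129). The Cyp4a genes are close paralogs whose probes may bind each other's transcripts.

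Among 15 tested regulators of oxidation, 7 were called higher and 2 lower, with a median log2 change of 0.43. Ppargc1a, a coactivator of PPARalpha, read 6447, 5678 and 5635 in knock-in and 871, 1433 and 1346 in wild-type mice, a change of 2.30 ± 0.18 (limma adjusted p = 0.000454). Ppargc1b (1.17 ± 0.18), the deacetylase gene Sirt1 (1.10 ± 0.12) and the hepatocyte factor gene Hnf4a (0.84 ± 0.09) also rose (adjusted p = 0.00108 to 0.00384). These coactivator and factor genes were higher in the same livers where Ppara and most oxidation enzymes were lower. Nrip1, Med1 and Nrf1 rose by 0.53, 0.53 and 0.43. Med1 lost its call without knock-in 1, wild-type 2 or wild-type 6 (up to 0.0554), and Nrf1 with quantile normalization, with centred arrays and without any mouse other than knock-in 3 (adjusted p up to 0.114). Creb3l3, a liver transcription factor that acts with PPARalpha, fell (-1.60 ± 0.26, adjusted p = 0.00477), as did Nr1h3 (-0.55 ± 0.13, adjusted p = 0.0178). The Nr1h3 call was lost without knock-in 1 or wild-type 2, 4 or 6 (adjusted p up to 0.0688). Rxra, the partner of PPARalpha, was not called (-0.18 ± 0.10, adjusted p = 0.243). Lpin1 (1.04 ± 0.34, adjusted p = 0.0598) and Tfam (-0.44 ± 0.15, adjusted p = 0.0694) were not called either, but lay nearer the threshold. Lpin1 was called higher with the 50th percentile filter and without wild-type 2 or 6. Tfam was called lower with quantile normalization, with array weights and without wild-type 4.

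Lists of neighbouring mitochondrial genes were set beside the members. Of 17 tested citric acid cycle genes, 7 were called lower and 1 higher, with a median of -0.27. Citrate synthase, Cs, changed by -0.95 ± 0.11 (limma adjusted p = 0.00154) and fumarate hydratase, Fh1, by 0.96 ± 0.10 (adjusted p = 0.00107). Of 30 nuclear-coded respiratory chain genes, 7 were called lower and 0 higher, with a median of -0.22. With single mice left out, the number called lower ran from 2 to 9 for the cycle and from 1 to 11 for the chain, lowest without knock-in 1 in both and for the chain also without wild-type 2 or 6. It was 13 for the chain with array weights. The difference between these lists and the members was not tested.

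**Figure D4:**
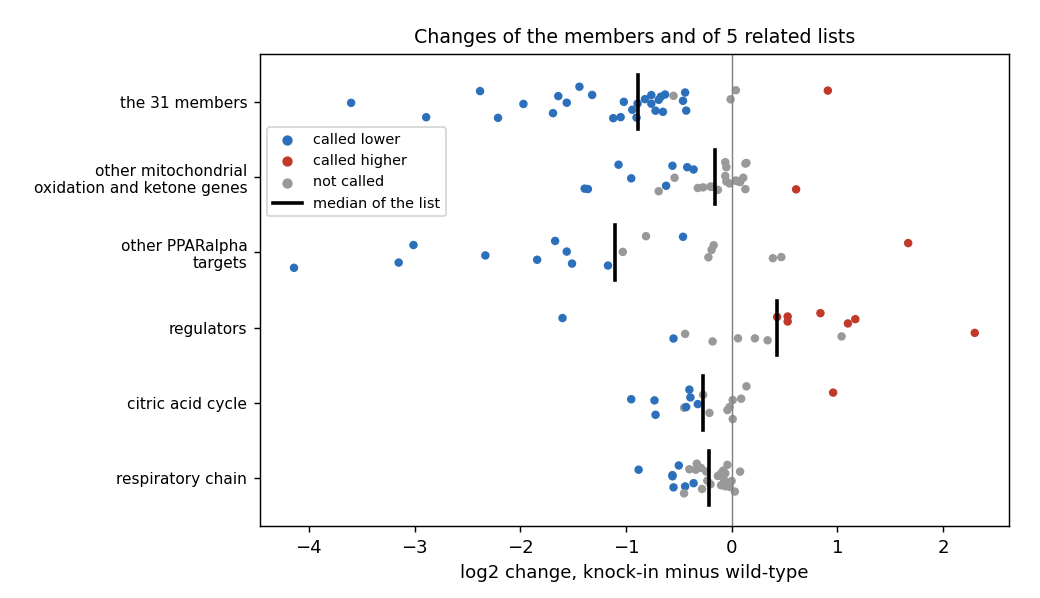
Log2 change of every tested gene (points) in the 31 members and in 5 related lists, with a black bar at each list's median and colour for the call. Medians were -0.89 for the members, -0.16 for other mitochondrial oxidation genes, -1.10 for other PPARalpha targets, 0.43 for regulators, -0.27 for the citric acid cycle and -0.22 for the respiratory chain.

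The arrays had medians between 97 and 104 units. When each array was centred on its median, 47.7% of all calls were higher in place of 57.7%, while the same number of members, 27 lower and 1 higher, was called. The liver label was met by its defining markers. Of 8 hepatocyte markers, Tat and Hnf4a rose and 0 fell (Alb, albumin, 0.03 ± 0.06), with summed intensities of 106735 to 114461 in knock-in and 101201 to 104040 in wild-type mice. Of 6 Kupffer cell markers, Adgre1 was called lower, with sums of 1825 to 3730 against 3354 to 5672. Of 5 sinusoidal endothelial markers, Stab2, Kdr and Clec4g fell and Lyve1 rose, with sums of 3444 to 4929 against 4307 to 4683. Of 6 stellate cell markers, Lrat fell and Dcn rose (7416 to 8869 against 6523 to 7525), and of 5 neutrophil markers, 4 were tested and S100a8 and Retnlg rose (sums over the 5 of 341 to 362 against 226 to 269). Of 6 lymphocyte markers, 3 were tested and Cd79b fell (sums over the 6 of 366 to 391 against 380 to 455). The tested markers of cholangiocytes (4), fat cells (3), striated muscle (5) and kidney or pancreas (4) had 0 calls. The sums over all measured markers of each of these types, tested or not, were at most 752 units in any mouse. No marker was at 0, since the lowest intensity on the arrays was 7. The part of these cell types in the members' falls was not tested.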

How the data were processed

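Liver RNA of 6 mice was hybridised to 1-colour arrays, 1 per mouse. The authors deposited linear intensities for 35512 probe sets, and the sources used here do not give their summary and normalization steps. Columns were matched by sample identifier. Gene names come from an annotation table of the platform, possibly outdated (21789 with 1 symbol, 1621 with several, 12102 unlisted), and the 31 members' gene identifiers all matched RefSeq (GRCm38.p6) with 0 differing symbols. Promoters are RefSeq's, with the members' windows searched on both strands.

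Intensities were analysed as log2(value + 16), which understates changes of dim genes. The dimmest probe sets, below the 25th percentile of mean log2 value, were dropped. The genotypes were compared over the other 26634 with limma 3.58.1 in R 4.3.3 (lmFit, eBayes with trend), calling Benjamini-Hochberg adjusted p-values below 0.05. Arrays carry no read depth, and 3 mice per genotype limit the precision. Errors are SE for changes and SD for intensities. Where a gene had several probe sets, the one with the highest mean stood for it. All 33 listed members are accounted for; of the other lists, called genes and otherwise up to 4 by smallest p could be named, while Rxra, Cyp4a14 and Alb were named after their values were seen. The members and lists were chosen with earlier results of these data known. The 16 alternatives were pseudocounts of 1 and 64, quantile normalization, centred arrays, no filter or one at the 50th percentile, eBayes without trend or with a robust prior, array weights, mean of a gene's probe sets, and each mouse left out; they were extended to single genes of the other lists after seeing the data. The limma p-values set the genotype difference against the spread between these mice, with variances moderated over all tested probe sets. The procedure was also run on simulated data with independent noise and few, bright changed probe sets. Those settings differ from these data, so that run does not bear on the calls made here. Figures were drawn with matplotlib 3.10.9.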

Additional observations from a re-analysis of the deposited data

How the results depend on the processing

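The number of members called lower ran from 13 to 27 with single mice left out, and the number called higher was 1 under every alternative. The median log2 change of the members ran from -1.07 to -0.75 with single mice left out. The number of all probe sets called ran from 4236 to 7725 with single mice left out, so the members' counts moved together with those of the whole table; fewer samples were fitted there. Without a filter 21 members were called lower, as more probe sets entered the adjustment. No alternative turned the direction of a called member. Over single members and the 16 alternatives, 430 values kept their side of the threshold, 62 were no longer called and 4, all of Acadvl, were newly called. No paired analysis was possible because the sample labels give no pairing of the mice. Arrays give no depth, and 3 mice per genotype leave the size of each change uncertain. Where an interval is printed beside a gene that was not called, changes within that interval were not excluded.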
